A study of Mus musculus with 16 samples.

Results

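The interaction between doxorubicin and nicotinamide mononucleotide (NMN) was measured gene by gene in the mouse heart, as the log2 effect of doxorubicin in animals given NMN minus its log2 effect in animals not given NMN. It draws on all 16 libraries of the study, 4 in each of 4 groups, and on every gene with enough reads to test, 14716 of the 30884 in the count table. The mice were male wild-type C57BL/6 animals aged 8 weeks, and hearts were taken 5 days after a single intraperitoneal injection of doxorubicin at 15 mg/kg or of saline in the sham groups. NMN at 500 mg/kg or saline was injected intraperitoneally 30 min earlier. The groups are called sham vehicle (saline for both agents), sham NMN (NMN, then saline), doxorubicin vehicle (saline, then doxorubicin) and doxorubicin NMN (NMN, then doxorubicin). Doxorubicin effect without NMN means doxorubicin vehicle minus sham vehicle, and doxorubicin effect with NMN means doxorubicin NMN minus sham NMN, so the 2 effects share no library. A positive interaction therefore marks a gene whose doxorubicin effect was higher with NMN, which includes a fall that was smaller. The labels number the libraries of a group but do not say that they come from separate animals, so the p-values reflect only how these libraries vary, which may be technical.

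Doxorubicin is an anthracycline cancer drug that poisons type II topoisomerases, cycles electrons to oxygen and damages heart muscle. The heart runs on mitochondrial oxidation of fatty acids, glucose, ketone bodies and lactate, and its contraction depends on calcium release from and return to the sarcoplasmic reticulum. NMN is a precursor of NAD, the coenzyme of those oxidations and the substrate of sirtuins and poly(ADP-ribose) polymerases. The question a factorial design of this kind addresses is which parts of a drug response depend on a second agent.

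Promoters of 3 genes are shown because their transcripts mark different outcomes of the comparison below: Mt1, a metallothionein that binds zinc and copper, and Srxn1, sulfiredoxin, which repairs oxidised peroxiredoxins, were high after doxorubicin only in the animals without NMN, whereas Hbb-bs, an adult beta globin of red cells, was nearly absent after doxorubicin in 3 of 4 libraries with NMN too. Each sequence is the RefSeq sequence (GRCm38.p6) from 250 bases before to 50 bases after the annotated start, 5′ to 3′. Capitals in Mt1 (chr8:94178839-94179138, plus strand) mark matches to TGCACNC or TGCGCNC, the core of metal response elements bound by MTF1. Capitals in Srxn1 (chr2:152105274-152105573, plus strand) mark a match to TGANTCAGC, a form of the antioxidant response element bound by NRF2 with small MAF proteins. Capitals in Hbb-bs (chr7:103827879-103828178, minus strand) mark AGATAA, the motif of erythroid GATA factors, and CCACACCC, the CACCC box bound by KLF1.
Mt1: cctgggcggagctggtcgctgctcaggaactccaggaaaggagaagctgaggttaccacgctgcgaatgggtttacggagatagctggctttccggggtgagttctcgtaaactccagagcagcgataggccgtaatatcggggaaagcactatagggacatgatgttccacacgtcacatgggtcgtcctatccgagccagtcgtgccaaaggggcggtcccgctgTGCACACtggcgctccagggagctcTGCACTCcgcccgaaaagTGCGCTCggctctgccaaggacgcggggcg
Srxn1: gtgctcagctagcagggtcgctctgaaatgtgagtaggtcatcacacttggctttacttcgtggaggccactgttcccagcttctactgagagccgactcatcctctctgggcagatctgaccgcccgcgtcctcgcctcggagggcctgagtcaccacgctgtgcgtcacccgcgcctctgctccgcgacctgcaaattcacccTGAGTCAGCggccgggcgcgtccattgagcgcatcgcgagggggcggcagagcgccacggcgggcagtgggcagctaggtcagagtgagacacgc
Hbb-bs: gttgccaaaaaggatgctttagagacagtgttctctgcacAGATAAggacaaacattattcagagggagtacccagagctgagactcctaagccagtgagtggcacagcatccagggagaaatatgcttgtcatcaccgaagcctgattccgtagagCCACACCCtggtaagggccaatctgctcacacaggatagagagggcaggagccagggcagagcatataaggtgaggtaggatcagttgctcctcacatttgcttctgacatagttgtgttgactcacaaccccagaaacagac
Both strands were searched, and no match overlapped another. Of 32851 RefSeq promoters of this length, 25.7% held either metal response core and 1.97% held 3 or more matches, as Mt1 does. The antioxidant response form was in 1.19%, the GATA motif in 11.2% and the CACCC box in 3.56% of them. A match is a description of the letters only.

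Total counts ran from 13927970 to 16400069 per library, at which 3 counts correspond to 0.183 to 0.215 CPM (library-scaled counts, in which every library has the same total). The 13 cardiomyocyte markers together held 69720 to 75350 CPM in sham vehicle, 66620 to 71980 in sham NMN, 25190 to 34550 in doxorubicin vehicle and 43290 to 69010 in doxorubicin NMN, as heart tissue should. In bulk tissue, fewer cells of a type and less RNA per cell cannot be told apart. The library labelled doxorubicin NMN replicate 3 stood apart from its group and went against its label. Summed counts of 5 erythroid genes were 3550 to 8748 in the 8 sham libraries, 6, 25, 39 and 7 in doxorubicin vehicle, and 69, 6, 4447 and 16 in doxorubicin NMN replicates 1 to 4. Along the doxorubicin response without NMN, measured as the slope over the 7145 genes called there, the 4 doxorubicin NMN libraries stood at 0.284, 0.0835, 0.0044 and 0.263, and the 4 sham NMN libraries at -0.0756 to 0.0786, each against the mean of the other sham NMN libraries. Replicate 3 thus sat inside the sham range on both measures, and what its omission changes is given below for named genes and for several lists. A second division crossed the groups: 6 libraries (replicates 3 and 4 of sham vehicle and of doxorubicin vehicle, and replicate 4 of each NMN group) read near 0 for Scand1, and are called the second part, the other 10 the first part. Its origin is not given in the labels, and in the second part each NMN group has 1 library.

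**Figure D1:**
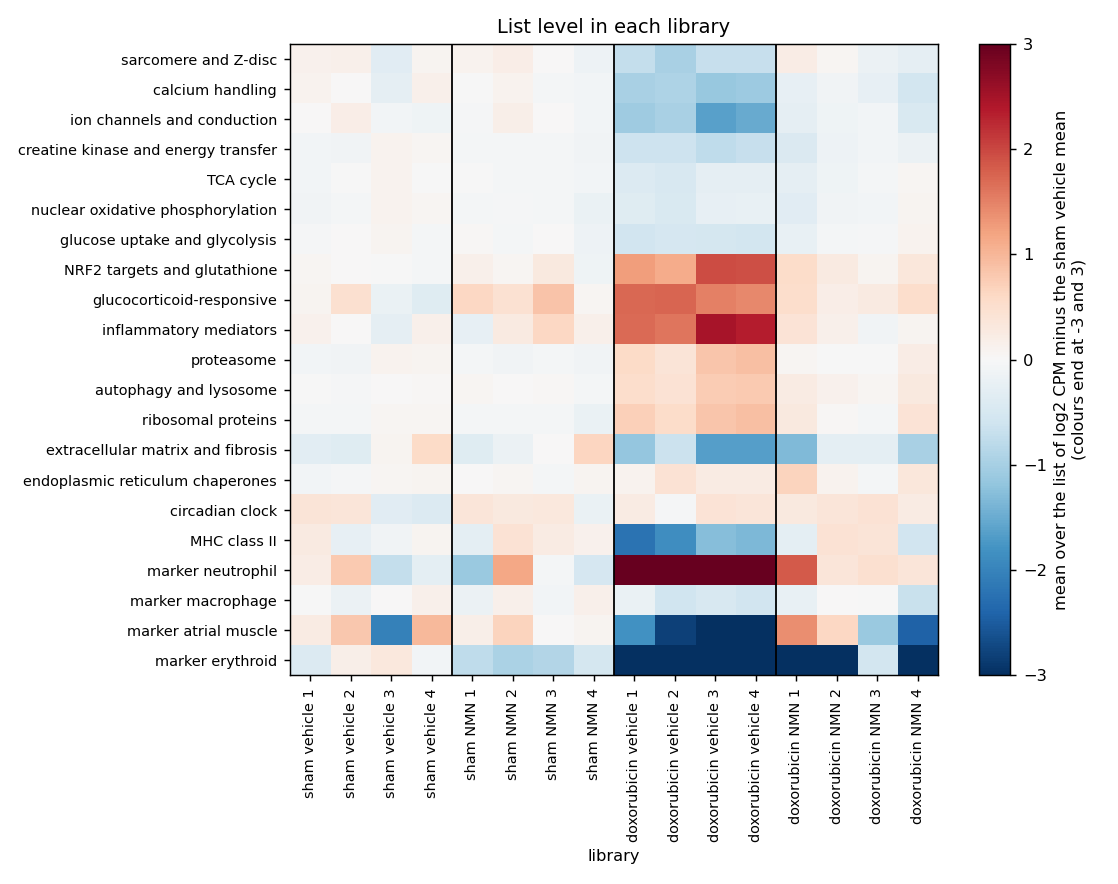
Mean log2 CPM of selected gene lists (rows) in each of the 16 libraries (columns), as a difference from the mean of the 4 sham vehicle libraries, on a colour scale in log2 units. Doxorubicin vehicle differs from sham in most rows, whereas in most of the rows shown doxorubicin NMN replicates 2 and 3 are closer to sham, the erythroid markers of replicate 2 being an exception, and replicates 1 and 4 keep a weaker version of some rows.

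The doxorubicin effect differed with NMN for 2654 of 14716 genes (18%) at an adjusted p under 0.05 (edgeR, quasi-likelihood test; Benjamini-Hochberg over all genes), 1359 of them with a positive (9.23%) and 1295 with a negative interaction (8.8%). Without NMN, 7145 genes (48.6%) were called for the doxorubicin effect, 3635 higher (24.7%) and 3510 lower (23.9%). With NMN, 0 were called (0%), the smallest adjusted p being 0.407, while 1205 genes (8.19%) had an unadjusted p under 0.05, 709 higher (4.82%) and 496 lower (3.37%); DESeq2 called 21 and limma-voom 0. In the sham hearts, NMN itself gave 0 calls (0%) in edgeR's test (smallest adjusted p 0.99956), with 332 genes (2.26%) at an unadjusted p under 0.05.

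Without the library labelled doxorubicin NMN replicate 3, the interaction was called for 1673 genes (11.2%), 1651 of them among the 2654, and no sign changed among those 2654. Positive interactions fell from 9 to 7 for calcium handling, 9 to 6 for the TCA cycle and 6 to 4 for creatine kinase. Negative ones fell from 13 to 10 for the proteasome, 10 to 7 for autophagy and 12 to 10 for inflammatory mediators. Interferon-stimulated genes went from 4 to 5 positive. Of 225 genes named by rule and called with all libraries, 48 were no longer called. Among the genes described below, the call was lost for Abcb8, Cx3cr1, Cyp1a1, H2-Ab1, Irs2, Ndufs3, Nr3c1, Parp1, Ryr2, Sirt1 and Sod2, with adjusted p from 0.0508 to 0.0882 in edgeR's test, and Hbb-bs, at 0.193. The doxorubicin effect with NMN then had 21 calls, 8 higher and 13 lower, and 1780 genes (11.9%) at an unadjusted p under 0.05. Other single libraries also moved the number of interaction calls by more than 1.5 times: it was 1713 without sham NMN replicate 3, 4114 without doxorubicin vehicle replicate 2, 1757 without doxorubicin vehicle replicate 3, 1760 without doxorubicin vehicle replicate 4 and 1703 without doxorubicin NMN replicate 2. Within the first part of the libraries the count was 1382 and within the second 4850, the latter resting on single libraries for both NMN groups, and it was 3491 with the division as a term in the model.

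What remained of the doxorubicin effect with NMN was small and mostly in the same direction. Of the 7145 genes called without NMN, 5525 (77.3%) had the same sign with NMN; 801 (11.2%) had an unadjusted p under 0.05 in the same direction and 51 (0.714%) in the other, against 353 of the 7571 genes not called without NMN (4.66%) in either direction. Among the 53 called genes over 16-fold higher without NMN the median effect went from 4.75 to 0.55 on the log2 scale, and among the 41 over 16-fold lower from -4.85 to -0.60. Across all genes tested the slope of the effect with NMN on the effect without NMN was 0.154 (Pearson 0.440, Spearman 0.464; a description over genes, which are not independent). Without doxorubicin NMN replicate 3, the slope was 0.216 and the genes in the same direction were 1231 (17.3%).

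A missed threshold does not show that the 2 effects were alike, so the 95% interval of the interaction was used as a bound. Of the genes called without NMN, 4526 were not called for the interaction; for 2306 of these the interval lay within a 2-fold difference, and for 2220 it reached beyond. Among genes that differed by more than 2-fold without NMN, the interval lay within 2-fold for 9 of 2629. No gene met the full rule for a retained response (called in both arms with the same sign and an interaction within 2-fold). The interaction was called for 2619 genes that were also called without NMN (36.7% of those), but both tests use the 8 vehicle libraries, so this overlap is no separate result. Among them, 0 had an interaction with the sign of the effect without NMN. The direction of called genes in a list below thus follows whether they fell or rose without NMN, and is no separate result either. The list counts stand beside 9.23% positive and 8.8% negative interactions over all genes tested.

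**Figure D2:**
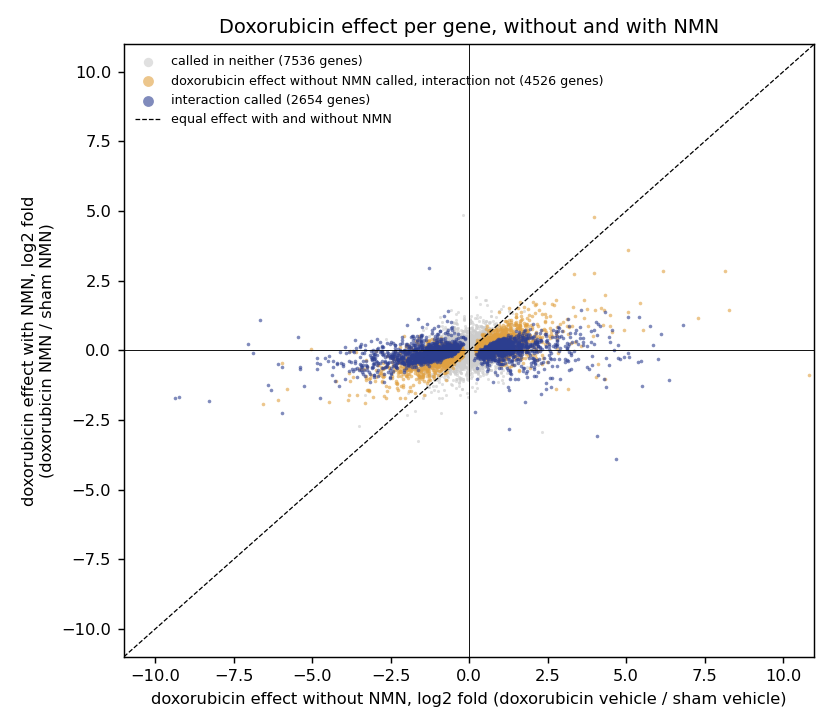
Log2 effect of doxorubicin without NMN (x axis) and with NMN (y axis) for the 14716 genes tested, coloured by whether the gene was called for the interaction, for the effect without NMN only, or for neither. The cloud lies far flatter than the diagonal of equal effects, with a slope of 0.154.

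Some genes of calcium release and contraction fell with doxorubicin in the animals without NMN, and fell less or not detectably with it. Hrc, which buffers calcium inside the sarcoplasmic reticulum (ENSMUSG00000038239.11; chromosome 7, 45335290 to 45338974, plus strand, GRCm38 as for all coordinates here), was at 1090.2, 1137, 1168 and 972 CPM in the sham vehicle libraries, 1095, 1048, 1038 and 1026 in sham NMN, 384, 369.96, 388 and 400.5 in doxorubicin vehicle and 797, 1020.5, 1096 and 917 in doxorubicin NMN. All 4 doxorubicin vehicle libraries lay below every other library. Doxorubicin NMN replicates 1, 2 and 4 lay below every sham NMN library by a smaller margin, and replicate 3 lay just above the highest of them. The effect was -1.5 on the log2 scale without NMN and -0.13 with it, an interaction of 1.37 ± 0.14 (standard error; adjusted p 4.60e-05). Of 17 calcium-handling genes tested, 9 had a positive and 0 a negative interaction (9.23% and 8.8% of all genes tested). The list median went from -0.64 without NMN to -0.15 with it. Over all genes tested both medians were within 0.01 of 0. Within the first part of the libraries 2 of its genes were called, although the medians were -0.68 and -0.1. Besides Hrc, the positive group included Casq2, the calcium store of the reticulum (-1.88 and -0.43), Atp2a2, the SERCA2 pump that refills it (-0.86 and -0.16), and Asph, whose junctin form sits at the release site (-1.23 and -0.17, effects without and with NMN). With NMN, 3 of the 17 were lower at an unadjusted p under 0.05, the release channel Ryr2 (-0.55), the skeletal calsequestrin Casq1 (-1.71) and the sodium-calcium exchanger Slc8a1 (-0.34). The calcium-binding protein S100a1 had an effect without NMN of 0.030.

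Myh6, the fast alpha myosin heavy chain of the adult mouse heart (chromosome 14, 54941921 to 54966927, minus strand), was at 29906, 31833, 30863 and 24954 CPM in sham vehicle, 29102, 29818, 28404 and 27100.3 in sham NMN, 2701, 2414, 4972 and 4445 in doxorubicin vehicle and 11238, 25096, 27285 and 19812 in doxorubicin NMN. Doxorubicin vehicle was far below all others, and within doxorubicin NMN replicate 1 was the lowest and replicate 3, at sham level, the highest. The interaction was 2.56 ± 0.35 (adjusted p 4.39e-04). Its slow partner Myh7 (chromosome 14, 54970684 to 54994626, minus strand) behaved differently. Myh7 was at 483, 425, 224 and 175 CPM in sham vehicle, 319, 442, 354 and 212 in sham NMN, 8106, 7605, 14692 and 13512 in doxorubicin vehicle and 10667, 568, 304 and 4460.4 in doxorubicin NMN replicates 1 to 4. Replicate 1 lay within the doxorubicin vehicle range, replicate 4 below it and far above sham, replicate 2 just above all sham values and replicate 3 among them. The effect was 5.07 without NMN and 3.59 with it (unadjusted p 0.00135), and the interaction of -1.48 ± 1.14 was not called (adjusted p 0.387, 95% interval -3.94 to 0.98). Without replicate 3 the effect with NMN was 3.98 (adjusted p 0.0549). Myh6 and Myh7 are neighbouring genes of nearly identical coding sequence, and how reads that match both were counted is not given in the sources used here.

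Of 23 sarcomere genes, 9 had a positive and 0 a negative interaction (9.23% and 8.8% of all genes tested). The list medians were -0.83 without NMN and within 0.001 of 0 with it. Cardiac troponin I (Tnni3), the calcium switch of the thin filament, had effects of -1.04 and 0.023, alpha cardiac actin (Actc1) -3.65 and -0.67, and myosin-binding protein C (Mybpc3) -0.9 and -0.00056. Titin (Ttn), the molecular spring of the sarcomere, was not called for the interaction: its effects were -0.97 and -0.4, and the interaction 0.57 ± 0.2 (adjusted p 0.0538). Lmod3, leiomodin 3, which nucleates actin filaments in striated muscle (chromosome 6, 97238534 to 97252759, minus strand), was at 101, 90.97, 110.02 and 113 CPM in sham vehicle, 95.7, 108, 89.03 and 101 in sham NMN, 13.6, 18.9, 8.27 and 9.34 in doxorubicin vehicle and 60.1, 104, 113 and 83.1 in doxorubicin NMN. Only doxorubicin NMN replicates 1 and 4 were below every sham library, and both stayed well above doxorubicin vehicle. Its interaction was 2.92 ± 0.31 (adjusted p 8.20e-05), and Ttll1, a tubulin polyglutamylase subunit, and Dhrs7c, a short-chain dehydrogenase of the sarcoplasmic reticulum, had interactions of 2.05 ± 0.21 (adjusted p 4.60e-05) and 1.85 ± 0.21 (adjusted p 1.14e-04). The cell adhesion gene Mdga1 (-4.45 and -0.19) and the predicted gene Gm45670 (-3.34 and -0.079) complete the 10 positive interactions with the smallest p.

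Some ion channel genes moved the same way, and here chamber composition has to be read beside them. Of 22 channel and conduction genes, 9 had a positive and 0 a negative interaction, with medians of -1.13 and -0.21. Cacna1g, the T-type calcium channel of conduction tissue, kept part of its fall with NMN, at -3.04 without and -0.87 with NMN (unadjusted p 8.51e-04), and every doxorubicin NMN library was below every sham NMN library (19.3, 16.98, 23.7 and 13.5 against 25.2, 44.7, 27.6 and 36.99 CPM). Hcn4, the pacemaker channel, had effects of -3.45 and -0.69, and Gja5, connexin 40 of atria and conduction fibres, -1.59 and 0.16. The atrial light chain Myl7 was at 26.3, 43.7, 0.8498 and 69.1 CPM in sham vehicle, 28.4, 53.9, 20.5 and 21.9 in sham NMN, 0.8202, 0.242, 0.0656 and 0 in doxorubicin vehicle and 71.4, 39.9, 4.34 and 0.0683 in doxorubicin NMN. It was thus low in all doxorubicin vehicle libraries but also in sham vehicle replicate 3 and in doxorubicin NMN replicates 3 and 4. Of 8 atrial markers, 4 had a positive and 0 a negative interaction, and the summed level of the 9 in the count table was 264 to 502 CPM in sham vehicle, 319 to 464 in sham NMN, 56.9 to 155 in doxorubicin vehicle and 218 to 676 in doxorubicin NMN. Their part in the channel, calcium-handling and sarcomere results was not tested.

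Positive interactions were also called for some genes of glucose, ketone and mitochondrial metabolism, though not for most genes of those lists. Slc2a4, the insulin-responsive glucose transporter GLUT4 (chromosome 11, 69942539 to 69948188, minus strand), was at 437, 449, 409 and 353 CPM in sham vehicle, 465, 452, 454 and 359.7 in sham NMN, 137, 148, 168 and 159 in doxorubicin vehicle and 376, 439, 447 and 414 in doxorubicin NMN. Doxorubicin vehicle was below every other library by more than 2-fold, while doxorubicin NMN and sham overlapped. Its interaction was 1.38 ± 0.15 (adjusted p 8.20e-05). Oxct1, the enzyme that commits ketone bodies to oxidation, was at 1232 ± 79.1 CPM (SD, n = 4) in sham NMN and 1100.3 ± 181 in doxorubicin NMN, against 1239 ± 138 in sham vehicle and 352 ± 51.1 in doxorubicin vehicle, with an interaction of 1.65 ± 0.19 (adjusted p 9.64e-05). Gpt, alanine aminotransferase, fell by 2.4 on the log2 scale without NMN and was -0.21 with it. The smallest p of all positive interactions belonged to Mmab, which makes the adenosyl form of vitamin B12 used by methylmalonyl-CoA mutase: 19.6, 16.95, 17.98 and 15.7 CPM in doxorubicin vehicle, where every library was below sham, and 38.8, 43.9, 45.7 and 45.1 in doxorubicin NMN, where every library was above sham NMN (36.7, 34.9, 33.04 and 38.2).

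Of 21 glucose uptake and glycolysis genes, 7 had a positive and 0 a negative interaction, among them hexokinase 2 (Hk2, -1.61 and -0.11) and the muscle enolase Eno3 (-1.9 and -0.26, effects without and with NMN). Of 23 TCA cycle genes, 9 were positive and 0 negative, with medians of -0.42 and -0.047; malate dehydrogenase 1 (Mdh1) went from -0.72 to -0.047. Of 41 nuclear genes of oxidative phosphorylation, 11 were positive and 1 negative, with medians of -0.3 and -0.017, and for 32 of the 41 the interval of the interaction lay within 2-fold. The 1 negative gene was Ndufs3, a complex I subunit, with effects of 0.77 and -1.15. Of 12 mitochondrially encoded genes, 1 was called (mt-Nd2, -0.53 and 0.011). Of 14 genes of creatine kinase and energy transfer, 6 were positive, with creatine kinase B (Ckb) going from -2.19 to -0.28. Perm1, a muscle regulator of mitochondrial genes, fell by 1.5 on the log2 scale without NMN and was 0.045 with it, an interaction of 1.55 ± 0.31 (adjusted p 0.00472).

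Targets of PPAR alpha, the fatty acid sensor, were high in 2 of the 4 doxorubicin vehicle libraries: the mean of 16 such genes stood 2.04 and 2.13 above sham vehicle on the log2 scale in replicates 1 and 2, and at -0.19 and -0.18 in replicates 3 and 4. Pdk4, which turns off glucose oxidation in favour of fat, was at 103, 202, 257 and 227 CPM in sham vehicle, 248, 280.02, 410.2 and 366 in sham NMN, 4397, 5459, 321 and 359 in doxorubicin vehicle and 258, 119, 138 and 358 in doxorubicin NMN. Doxorubicin vehicle replicates 1 and 2 stood alone, and replicates 3 and 4 lay among the sham values. Its interaction was -4.32 ± 1.11 (adjusted p 0.0186), -5.88 in the first part of the libraries alone and -0.51 in the second alone. Of the 16 targets, 0 had a positive and 4 a negative interaction, with 13 negative in the first part and 5 positive and 3 negative in the second. Genes of fatty acid oxidation as such were 0 positive and 3 negative of 23.

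**Figure D3:**
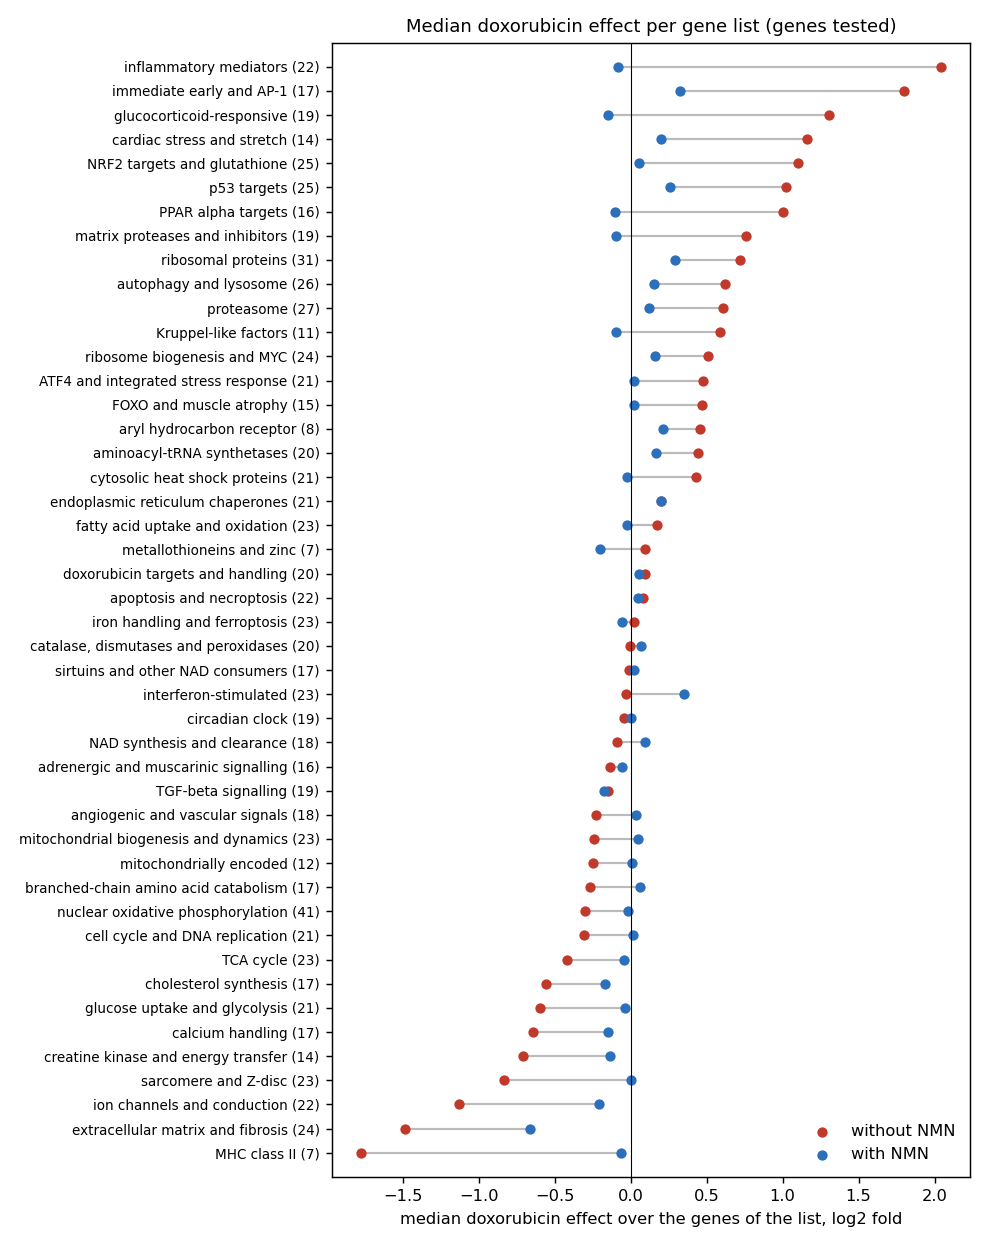
Median log2 doxorubicin effect of each of the 46 pathway lists without NMN and with NMN, 1 row per list, with the number of genes tested. Over these lists, medians with NMN run from -0.66 (extracellular matrix, -1.48 without NMN) to 0.35 (interferon-stimulated genes, -0.033 without NMN), against -1.77 to 2.04 without NMN; ribosomal proteins are at 0.72 without and 0.29 with NMN.

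The metallothionein Mt1 and 16 of 25 NRF2 target and glutathione genes rose without NMN and had a negative interaction. Srxn1, whose promoter is shown above, was at 19.8, 19.02, 16.9 and 16.1 CPM in sham vehicle, 18.3, 19.4, 22.1 and 16.3 in sham NMN, 123, 146, 884 and 784 in doxorubicin vehicle and 25.3, 20.8, 20.4 and 21.3 in doxorubicin NMN. Doxorubicin vehicle replicates 3 and 4 were far above replicates 1 and 2, which were still above every other library, and doxorubicin NMN overlapped sham. The effect was 4.75 without NMN and 0.21 with it, an interaction of -4.54 ± 0.74 (adjusted p 0.00187; -2.64 in the first part and -5.26 in the second). Mt1 was at 112, 143, 80.02 and 71.1 CPM in sham vehicle, 159, 144, 216 and 84.2 in sham NMN, 599.9, 768, 957 and 1062 in doxorubicin vehicle and 133, 94.4, 99.96 and 124 in doxorubicin NMN. All doxorubicin NMN values lay within the sham range, and the interaction was -3.48 ± 0.39 (edgeR, adjusted p 1.14e-04). That range spans both parts of the libraries, and replicate 4 lay above the sham libraries of its own part. The Mt1 effect with NMN was -0.67 in the first part and 0.56 in the second, where each NMN group has 1 library. Its interaction was -3.09 and -3.16 in these parts. Hmox1, which degrades heme, rose by 5.39 on the log2 scale without NMN and was -0.43 with it (interaction -5.82 ± 0.88, adjusted p 0.00127). Catalase (Cat, chromosome 2, 103453849 to 103485160, minus strand) was at 778, 746, 689 and 704 CPM in doxorubicin vehicle and 345, 226, 229 and 260.1 in doxorubicin NMN, against 245, 252, 232 and 213 in sham vehicle and 261, 243, 271 and 206 in sham NMN. Only doxorubicin NMN replicate 1 was above all sham values. Its interaction was -1.52 ± 0.18 (adjusted p 1.14e-04).

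Of 25 NRF2 targets and glutathione genes, 16 had a negative and 1 a positive interaction, with medians of 1.1 and 0.057. The positive gene was Gstt1, a theta-class glutathione transferase, which fell without NMN (-1.69) and was -0.12 with it. Both subunits of glutamate-cysteine ligase, which sets glutathione synthesis, were negative (Gclc 1.69 and 0.22, Gclm 3.1 and 0.066), as was thioredoxin reductase Txnrd1 (2.31 and 0.039). Nqo1, a quinone reductase, kept part of its response: 124, 62.6, 55.5 and 82.9 CPM in doxorubicin NMN against 52.4, 53.9, 58.3 and 37.2 in sham NMN, with replicates 1, 2 and 4 above every sham library, and 288, 252, 409 and 463 in doxorubicin vehicle. Its effect was 2.95 without NMN and 0.69 with it (unadjusted p 0.0152), and its interaction -2.27 ± 0.36 (adjusted p 0.00113). Of 20 catalase, dismutase and peroxidase genes, 6 were called higher and 3 lower without NMN, and 5 had a negative and 1 a positive interaction (3 and 0 without replicate 3); Gpx3, the secreted glutathione peroxidase, went from 3.55 to 0.84, and the positive one was the mitochondrial dismutase Sod2 (-0.86 and -0.23). Of 23 iron genes, 5 were negative, including the ferritin chains Fth1 (1.88 and 0.56) and Ftl1 (2.2 and 0.17), and 3 positive, including Alas1, the first enzyme of heme synthesis (-1.73 and -0.33).

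**Figure D4:**
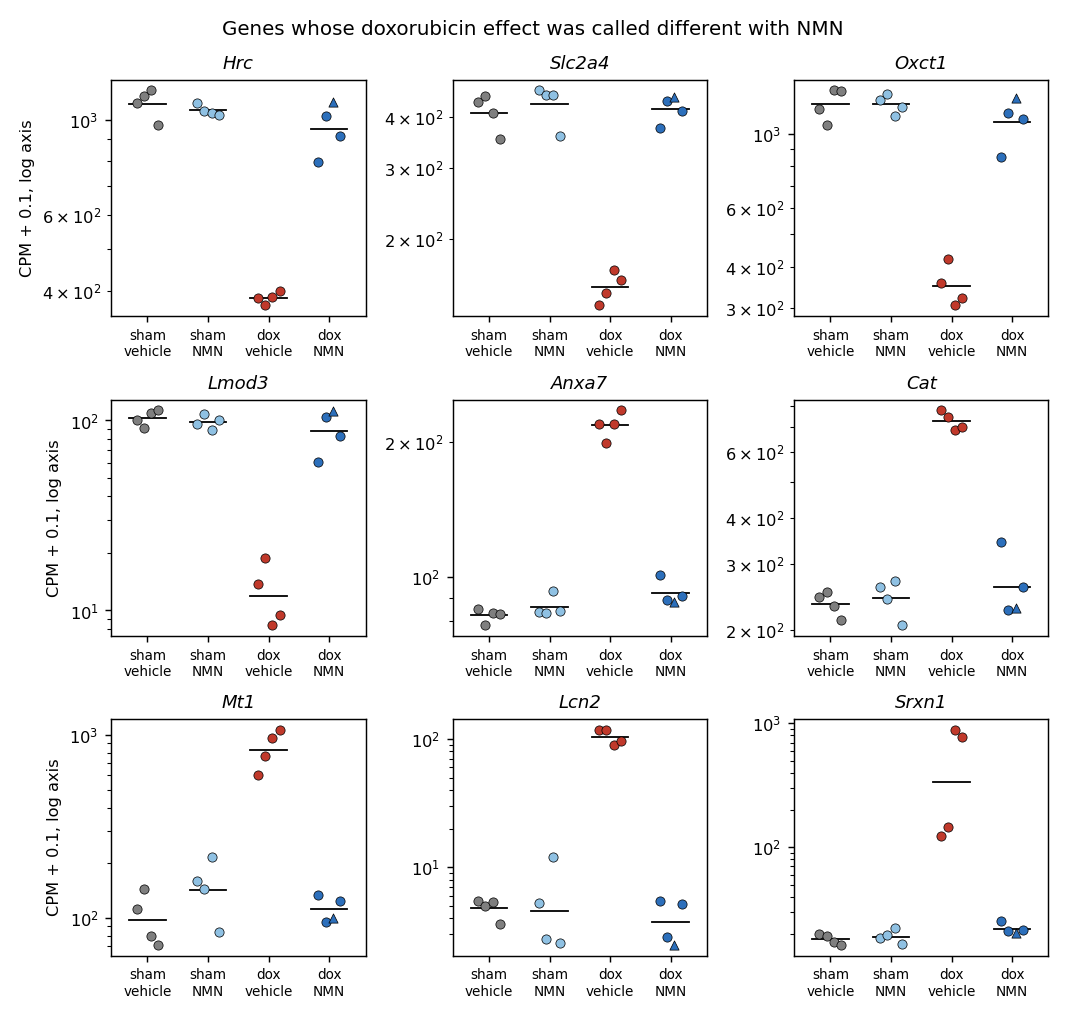
CPM + 0.1 on a log axis in each library for genes with a called interaction, 4 points per group with a line at the geometric mean; the triangle is doxorubicin NMN replicate 3. In each panel doxorubicin vehicle stands apart and doxorubicin NMN is near both sham groups.

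Some stress and growth-arrest genes rose without NMN and had a negative interaction. Cdkn1a, the p21 inhibitor of the cell cycle, was at 175, 179.8, 225 and 224 CPM in doxorubicin vehicle, 62.6, 42.01, 21.5 and 91.2 in doxorubicin NMN, 19.8, 28.6, 41.6 and 25.2 in sham vehicle and 44.9, 27.6, 39.1 and 38.7 in sham NMN. Doxorubicin NMN replicates 1 and 4 lay above all sham libraries and replicate 3 among the lowest of them. Its interaction was -2.27 ± 0.47 (adjusted p 0.00661). Of 25 p53 targets, 6 had a negative and 1 a positive interaction, with medians of 1.02 and 0.26. The positive one was cyclin G1 (Ccng1), which fell without NMN (-1.8) and was -0.41 with it, and Mdm2, the ligase that degrades p53, had effects of 0.014 and 0.015 with an interaction interval of -0.24 to 0.24. Gdf15, a secreted stress signal, was not called for the interaction: 9.32, 3.65, 1.52 and 3.42 CPM in doxorubicin NMN, 20.8, 7.69, 10.6 and 7.76 in doxorubicin vehicle and at most 2.27 in sham, with effects of 3.65 and 1.79 (interaction -1.86 ± 0.79, adjusted p 0.112). Of 14 cardiac stress and stretch genes, 6 were negative and 2 positive; the titin-associated Ankrd1 went from 3.27 to 0.28 and Ccn2, connective tissue growth factor, from 3.64 to 0.45. The natriuretic peptide gene Nppb was not called in either doxorubicin effect (-0.41 and 1.32, interaction 1.72 ± 0.93), but these values average unlike parts. Its effect without NMN was 1.57 in the first part of the libraries and -2.3 in the second. Its interaction was -0.93 in the first part, not called (adjusted p 0.463, edgeR). It was 4.83 in the second, where each NMN group has 1 library.

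Of 21 genes of the ATF4 response to amino acid and translation stress, 6 were negative and 0 positive. Atf4 was at 1.52 and 0.020, and the serine synthesis enzyme Psat1 at 2.05 and -0.26. The Psat1 interaction was -3.44 in the first part of the libraries. In the second, where each NMN group has 1 library, it was -0.011, from effects of 0.83 and 0.82. Of 17 immediate early genes, 5 were negative, among them Junb (3.41 and 0.34). Of 21 cytosolic heat shock genes, 8 were negative and 0 positive, including the cardiac small chaperones Hspb7 (0.9 and -0.025) and Cryab (0.7 and -0.029). Of 19 glucocorticoid-responsive genes, 9 were negative and 1 positive. The positive one was the receptor gene itself, Nr3c1 (-0.73 and -0.19). Fkbp5, a chaperone of the receptor, went from 2.07 to -0.58. Its effect with NMN was -0.87 in the first part of the libraries and 0.92 in the second, where each NMN group has 1 library. The list level stood above the sham vehicle mean by 0.63, 0.47, 0.85 and 0.059 in sham NMN, on the log2 scale. In doxorubicin NMN it stood 0.52, 0.21, 0.26 and 0.53 above that mean. Other genes with the smallest p among negative interactions were Anxa7, an annexin (219, 198, 219 and 235 CPM in doxorubicin vehicle and 101, 88.98, 88.04 and 90.5 in doxorubicin NMN, interaction -1.31 ± 0.11, adjusted p 1.92e-05), Mvp, the major vault protein (1.78 and 0.38), Grk5, a receptor kinase that desensitises beta-adrenergic signalling (1.86 and 0.13), Ctps, CTP synthase (1.26 and 0.041), Cyp1b1 (2.53 and 0.063) and Efhd2 (2.07 and 0.24).

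Some genes of protein breakdown and of ribosome biogenesis rose without NMN and had a negative interaction, while others of the same lists were not called for it. Gabarapl1, which lipidates onto autophagosomes (chromosome 6, 129533160 to 129542346, plus strand), was at 45.4, 47.5, 41.6 and 50.1 CPM in sham vehicle, 59.5, 49.7, 60.6 and 46.4 in sham NMN, 199.95, 189, 202 and 215 in doxorubicin vehicle and 76.9, 56.5, 49.5 and 72.5 in doxorubicin NMN. Doxorubicin vehicle was far above the rest, and doxorubicin NMN replicates 1 and 4 were also above every sham library. Its interaction was -1.89 ± 0.18 (adjusted p 3.90e-05). Of 26 autophagy and lysosome genes, 10 were negative and 1 positive, including the receptor Sqstm1 (2.78 and 0.39). Of 27 proteasome subunits, 13 were negative and 0 positive, with medians of 0.61 and 0.12; Psmd11, a lid subunit, went from 1.64 to 0.11. Of 15 FOXO and atrophy genes, 6 were negative, among them Irs2 (3.54 and 0.58). Of 24 ribosome biogenesis genes, 10 were negative, and Myc, the transcription factor that drives them, was at 37.1, 23.4, 42.5 and 45.1 CPM in doxorubicin vehicle and 7.56, 3.46, 2.53 and 3.69 in doxorubicin NMN, with an interaction of -3.19 ± 0.46 (adjusted p 6.82e-04); only replicate 1 of doxorubicin NMN was above all sham libraries by more than 2-fold.

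Some acute-phase and cytokine signalling genes rose without NMN and were near sham with it. Lcn2, an iron-siderophore binding protein of acute inflammation, was at 5.38, 4.87, 5.23 and 3.504 CPM in sham vehicle, 5.16, 2.66, 11.8 and 2.48 in sham NMN, 117, 117, 89.1 and 96.8 in doxorubicin vehicle and 5.33, 2.77, 2.39 and 5.06 in doxorubicin NMN. The doxorubicin NMN libraries lay within the sham range, with replicate 3 just below it, and sham NMN replicate 3 was the highest outside doxorubicin vehicle. Its interaction was -4.97 ± 0.58 (adjusted p 1.95e-04). Of 28 inflammatory mediators in the count table, 22 had enough reads to test. Of these 22, 12 had a negative and 0 a positive interaction, with medians of 2.04 and -0.085. A mediator near 0 in sham could be tested only through its reads after doxorubicin. The filter on reads therefore favoured genes that rose, and with them a high median without NMN and negative interactions. The protease inhibitor Serpina3n went from 5.84 to 0.19, Socs3, the feedback inhibitor of cytokine receptors, from 4.6 to 0.0022, and the interleukin 4 receptor chain Il4ra from 2.73 to 0.11. Neutrophil markers near 0 in sham could be tested only through their reads in doxorubicin vehicle. That all 9 tested, of 12, were called higher without NMN was therefore favoured by the filter on reads. Of the 9, 3 had a negative interaction, 1 without replicate 3. The summed level of the 12 in the count table was 2.07 to 8.76 CPM in sham vehicle, 0.764 to 10.9 in sham NMN, 45.1 to 134 in doxorubicin vehicle and 5.81 to 19.8 in doxorubicin NMN, and the part of these markers in the inflammatory list was not tested. The chemokine receptor Cxcr2 was at 1.22, 0.377, 0.289 and 0.547 CPM in doxorubicin NMN and at most 0.309 in sham, an effect of 2.76 (unadjusted p 0.00182), and its interaction of -1.2 ± 1.2 was not called.

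Antigen-presentation genes had the opposite sign. The 4 class II genes H2-Aa, H2-Ab1, H2-Eb1 and Cd74, which present peptides to helper T cells, fell without NMN, and 4 of the 7 class II genes tested had a positive interaction. H2-Aa was at 35.7, 20.5, 25.7 and 27.4 CPM in sham vehicle, 20.8, 36.2, 30.8 and 28.5 in sham NMN, 4.101, 4.18, 10.04 and 10.6 in doxorubicin vehicle and 22.1, 36.3, 37.9 and 15.99 in doxorubicin NMN. Doxorubicin vehicle lay below every other library, and doxorubicin NMN replicate 4 was the lowest of the rest. The interaction was 1.87 ± 0.47 (adjusted p 0.0154). Ighm, the mu chain of B cell immunoglobulin, had effects of -3.46 and 0.21 (interaction 3.67 ± 0.49, adjusted p 3.42e-04). Of 13 macrophage markers, 1 was called for the interaction (Cx3cr1, -3.37 and -0.84), and their summed level was 253 to 389 CPM in doxorubicin vehicle and 215 to 354 in doxorubicin NMN.

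Genes that make or use NAD showed no common direction. Of 18 synthesis and clearance genes, 2 had a positive and 1 a negative interaction (0 and 1 without replicate 3), the negative one being Aox1, an aldehyde oxidase that also clears nicotinamide metabolites (2.64 and 0.47). Nampt, the rate-limiting enzyme of NAD salvage, was at 301, 371, 250.4 and 229 CPM in sham vehicle, 352, 333, 387 and 245 in sham NMN, 443, 439, 388 and 419 in doxorubicin vehicle and 509.7, 366, 340.3 and 318 in doxorubicin NMN. Doxorubicin vehicle was above all sham libraries, by a narrow margin over sham NMN replicate 3, and the other groups overlapped each other. Its interaction was -0.33 ± 0.24 (adjusted p 0.344, interval -0.84 to 0.17). Nmrk2, the muscle nicotinamide riboside kinase, was at 6.45, 6.75, 7.29 and 8.404 CPM in sham NMN and 20.9, 10.1, 12.5 and 23.9 in doxorubicin NMN, with no overlap, and at 19.1, 8.81, 10.8 and 9.26 in sham vehicle and 15.1, 18.3, 31.2 and 13.8 in doxorubicin vehicle, which overlapped. Its effects were 0.71 (adjusted p 0.0723) and 1.22 (unadjusted p 0.00171), and the interaction was 0.51 ± 0.45 (adjusted p 0.442). Of 17 NAD consumers, 3 were positive and 4 negative, and without replicate 3 this was 1 and 1. Sirt3, the main mitochondrial deacetylase, was at 15.8, 20.2, 9.45 and 9.997 CPM in doxorubicin vehicle and 20.3, 27.4, 31.3 and 24.3 in doxorubicin NMN, which met at the edge of their ranges, and its interaction was 1.04 ± 0.27 (adjusted p 0.0151; 0.57 in the first part, 1.62 in the second). Sirt1, the nuclear deacetylase, went the other way, from 0.99 to 0.1, and Parp1, the main poly(ADP-ribose) polymerase, from -0.72 to -0.19.

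Red cell transcripts were nearly absent after doxorubicin in 3 of 4 libraries with NMN, and whether their interaction is called rests on the fourth. Hbb-bs counts were 2952, 4149, 4334 and 3406 in sham vehicle, 2132, 2017, 2210 and 2193 in sham NMN, 0, 6, 16 and 2 in doxorubicin vehicle and 38, 0, 2411 and 7 in doxorubicin NMN. Replicate 3 of doxorubicin NMN was at sham level, and the other 3 were among the doxorubicin vehicle values or near them. With all libraries the effect was -9.26 without NMN and -1.68 with it, and the interaction of 7.57 ± 2.32 was called (adjusted p 0.0403). Without replicate 3 the effect with NMN was -7.14 (adjusted p 2.84e-04) and the interaction was not called (adjusted p 0.193). Over the 5 erythroid genes tested, 3 had a positive interaction with all libraries; without replicate 3, 0 of 6 tested did, 5 were called lower with NMN, and their median effect with NMN was -7.02. Alas2, the red cell enzyme of heme synthesis, went from -1.79 with all libraries to -5.41 without replicate 3. Globin genes have near-identical copies, and reads matching several of them may have been split between them.

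**Figure D5:**
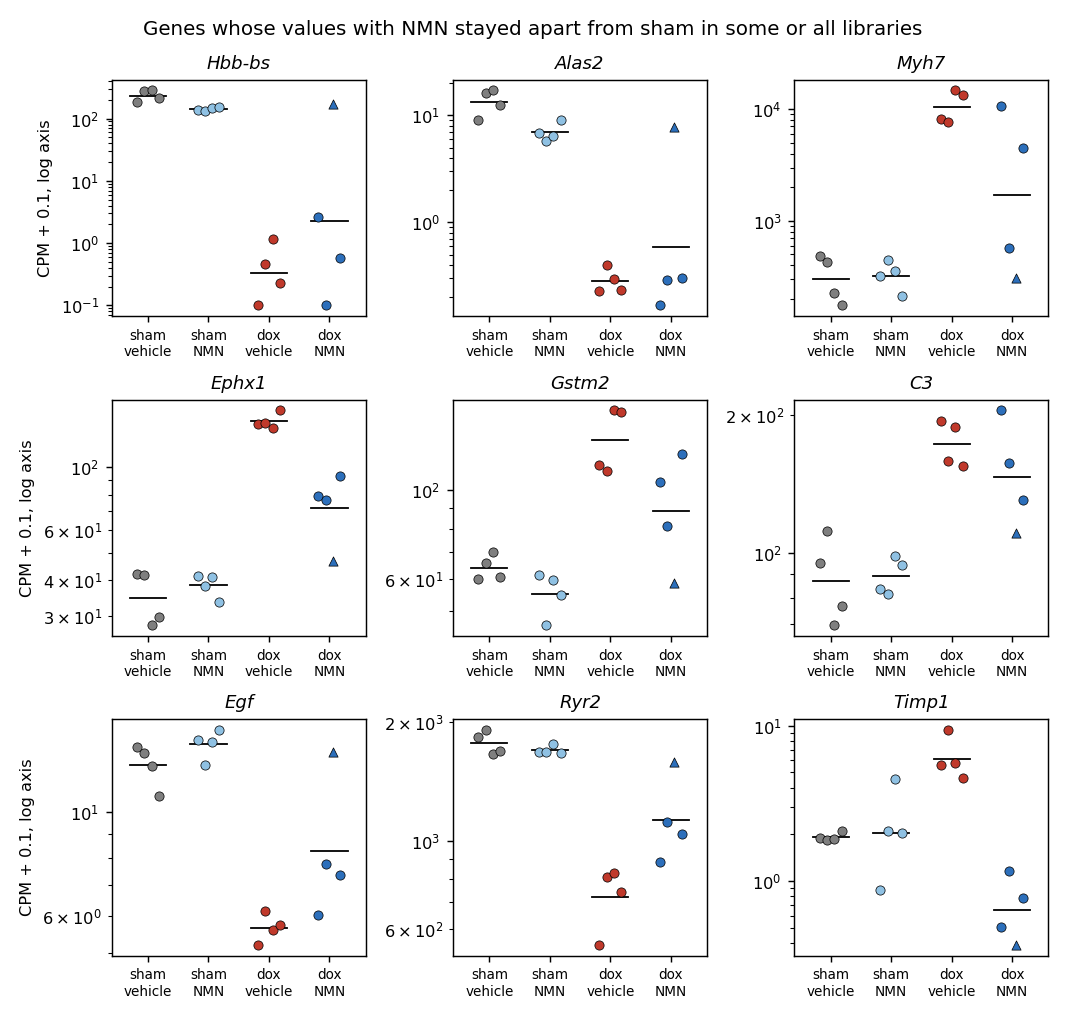
CPM + 0.1 on a log axis in each library for 9 genes whose values in doxorubicin NMN lay apart from sham in some or all libraries, 4 points per group with a line at the geometric mean; the triangle is doxorubicin NMN replicate 3. For Ephx1, Gstm2, Egf and Ryr2, replicates 1, 2 and 4 of doxorubicin NMN lie between sham NMN and the doxorubicin vehicle mean and replicate 3 is nearest to sham; for Hbb-bs and Alas2 replicate 3 alone is at sham level, and for Timp1 doxorubicin NMN lies on the other side of sham from doxorubicin vehicle.

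Some detoxification genes lay above sham with NMN. Ephx1, microsomal epoxide hydrolase, had the smallest p of all genes for the effect with NMN (chromosome 1, 180976210 to 181020904, minus strand): it was at 41.3, 38.2, 41.004 and 33.3 CPM in sham NMN, 78.7, 76.6, 46.7 and 93.2 in doxorubicin NMN, 42.1, 41.8, 27.7 and 29.5 in sham vehicle and 142, 142, 137 and 158 in doxorubicin vehicle. Every doxorubicin NMN library was above every sham library and below every doxorubicin vehicle library. The effects were 2.04 and 0.94 (unadjusted p 4.99e-05, adjusted 0.407; adjusted 0.00193 without replicate 3), and the interaction was -1.1 ± 0.25 (adjusted p 0.00749), so the response was smaller with NMN. Gstm1, a glutathione transferase, likewise went from 1.75 to 0.71 (interaction -1.04 ± 0.24, adjusted p 0.00757). Its neighbour Gstm2 was at 60.1, 65.7, 70.2 and 60.6 CPM in sham vehicle, 61.3, 45.98, 59.7 and 54.6 in sham NMN, 115, 111, 158 and 156 in doxorubicin vehicle and 105, 81.4, 58.6 and 123 in doxorubicin NMN. Replicate 4 reached the doxorubicin vehicle range, replicate 1 lay just below it, and replicate 3 stayed in the sham range. Its interaction was -0.34 ± 0.26 (adjusted p 0.364, interval -0.89 to 0.2), within 2-fold. The Gstm genes are close copies of each other, so reads may have been shared between them.

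Without replicate 3, 7 genes met the full rule for a retained response: Gstm2, C3, Egf, Ryr2, Lama2, Tuba1c and Mtus2, whereas 0 genes met it with all libraries. C3, the central complement protein, was at 95.3, 112, 69.6 and 76.5 CPM in sham vehicle, 83.5, 81.4, 98.7 and 94.2 in sham NMN, 194, 159, 188 and 155 in doxorubicin vehicle and 205, 157, 110.4 and 131 in doxorubicin NMN. Doxorubicin NMN lay above sham NMN in every library and overlapped doxorubicin vehicle. Its effects were 0.98 and 0.75 (0.88 without replicate 3, adjusted p 0.0486). Its interaction was 0.074 in the first part and -0.74 in the second, where each NMN group has 1 library. Egf, epidermal growth factor, fell in doxorubicin vehicle to 5.11, 6.05, 5.51 and 5.66 CPM and was 5.94, 7.67, 13.4 and 7.24 in doxorubicin NMN, against 13.7, 13.3, 12.5 and 10.8 in sham vehicle and 14.2, 12.5, 14.05 and 14.9 in sham NMN. Replicates 1, 2 and 4 were below all sham libraries and replicate 3 among them. Ryr2, the calcium release channel, was at 886, 1116, 1584 and 1043 CPM in doxorubicin NMN and 1677, 1683, 1759.8 and 1666 in sham NMN, with no overlap, and its effects were -1.28 and -0.55; the interaction of 0.73 ± 0.22 was called with all libraries (adjusted p 0.0309) and not without replicate 3 (adjusted p 0.0642). Lama2, laminin alpha 2 of the muscle basement membrane, went from -0.93 to -0.4, with its interaction called in both settings (adjusted p 0.0200 and 0.0406) and its size within 2-fold.

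A looser rule counts genes called without NMN that had an unadjusted p under 0.05 in the same direction with NMN and an interaction interval within 2-fold. It held for 428 genes (2.91%), 308 higher (2.09%) and 120 lower (0.815%), and for 672 without doxorubicin NMN replicate 3; the count was 280 without sham NMN replicate 2, 225 without doxorubicin NMN replicate 1 and 204 without doxorubicin NMN replicate 4. Of the 428, 22 encode ribosomal proteins on the list used here. Of 31 ribosomal protein genes tested, 30 were called higher without NMN and 24 had an unadjusted p under 0.05 higher with NMN (4.82% of all genes did), with medians of 0.72 and 0.29. For 12 the interaction was called, all negative, which fell to 4 without replicate 3. With the division of the libraries as a term in the model, 22 were called, all negative. With the replicate number as a block, 14 were, again all negative. Rpl3, of the large subunit, was at 129.6, 125, 122 and 122 CPM in sham vehicle, 117, 119.8, 135 and 112 in sham NMN, 383, 351, 249.9 and 246 in doxorubicin vehicle and 169, 155, 127 and 218 in doxorubicin NMN. Replicates 1, 2 and 4 were above every sham library, and replicate 4 was the highest, next to doxorubicin vehicle replicates 3 and 4 of the same part. The interaction was -0.83 ± 0.22 (adjusted p 0.0172), but -1.25 in the first part alone and -0.040 in the second alone. The list median in the second part was 0.8 without and 0.63 with NMN, and in the first 0.66 and 0.17. Aminoacyl-tRNA synthetases, which charge tRNAs, had 1 negative interaction of 20, with medians of 0.44 and 0.16.

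Some matrix genes were lower in both arms. Of 24 extracellular matrix genes, 15 were called lower without NMN and 10 had an unadjusted p under 0.05 lower with NMN (3.37% of all genes did), 5 of these 10 having been called lower without NMN, with medians of -1.48 and -0.66; 1 had a positive and 3 a negative interaction. Fbn1, fibrillin 1, was at 59.001, 43.8, 109.5 and 142 CPM in sham vehicle, 47.2, 51.6, 50.97 and 121 in sham NMN, 19.9, 36.99, 34.3 and 28.6 in doxorubicin vehicle and 21.3, 43.1, 40.3 and 39.98 in doxorubicin NMN. The sham libraries of the second part were well above the other sham libraries, and every doxorubicin NMN library was below every sham NMN library. The interaction was 0.66 ± 0.55 (adjusted p 0.426). In the first part the list medians were -0.85 without and -0.28 with NMN, whereas the second part had -1.96 and -1.62. The fibroblast markers together held 2061 to 2694 CPM in sham vehicle, 2004 to 3142 in sham NMN, 1499 to 1894 in doxorubicin vehicle and 1996 to 2467 in doxorubicin NMN, and 3 of 11 had a positive interaction (1 without replicate 3); their part in the matrix result was not tested. Endoplasmic reticulum chaperones had median effects without and with NMN of 0.2 and 0.2, with 1 interaction called of 21 (Xbp1, a regulator of the unfolded protein response, 1.61 and 0.52). Their medians were 0.2 and 0.31 without replicate 3, and 0.081 and 0.3 in the second part, where 7 interactions were positive and 3 negative.

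Some genes had doxorubicin effects of opposite sign in the 2 arms. No gene was called in both arms with opposite signs, since none was called with NMN, so the genes given here had a called interaction, a called effect without NMN and an unadjusted p under 0.05 the other way with NMN, which held for 51 genes (0.714% of those called without NMN, a share below the 4.66% of the other genes with such a p in either direction); they were chosen after their values were seen. Timp1, an inhibitor of matrix metalloproteinases, was at 1.79, 1.74, 1.77 and 2.002 CPM in sham vehicle, 0.774, 2.01, 4.41 and 1.93 in sham NMN, 5.49, 9.26, 5.64 and 4.54 in doxorubicin vehicle and 0.405, 1.07, 0.289 and 0.683 in doxorubicin NMN. Doxorubicin vehicle was above all other libraries, and the doxorubicin NMN libraries were the lowest except that sham NMN replicate 1 lay below replicate 2. The effects were 1.77 and -1.87, the interaction -3.63 ± 0.6 (adjusted p 0.00120), and the levels are low. Prg4, lubricin, went from 2.06 to -0.94 (interaction -2.99 ± 0.41, adjusted p 5.11e-04), with every doxorubicin NMN library (10.9, 10.5, 8.75 and 7.997 CPM) below every sham NMN library (14.8, 18.9, 20.9 and 18.5). Sham vehicle was at 12.8, 20.8, 6.08 and 9.7 CPM, a range that held all doxorubicin NMN values. Fhl1, a LIM protein of stressed muscle, went from 1.41 to -0.51 and Thbs1, thrombospondin 1, from 2.12 to -0.91. For both genes the sham vehicle range again held all doxorubicin NMN values. Thbs1 was at 7.42, 12.1, 10.4 and 29.6 CPM in sham NMN and 8.3, 8.74, 8.1 and 6.42 in doxorubicin NMN. In the first part of the libraries its effect with NMN was -0.25.

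Guanylate-binding proteins, interferon-induced GTPases of antimicrobial defence, had the reverse pattern. Gbp2 was at 13.8, 11.8, 14.4 and 17.3 CPM in sham vehicle, 11.997, 13.4, 13.4 and 11.8 in sham NMN, 7.51, 7.63, 9.06 and 9.21 in doxorubicin vehicle and 14.6, 19.7, 17.1 and 17.2 in doxorubicin NMN. Doxorubicin vehicle was the lowest group and doxorubicin NMN lay above every sham NMN library. The effects were -0.78 and 0.44 (interaction 1.22 ± 0.19, adjusted p 7.85e-04), and those of Gbp3 were -0.92 and 0.68 (interaction 1.6 ± 0.28, adjusted p 0.00170). Of 23 interferon-stimulated genes, 4 had a positive and 0 a negative interaction, and 6 had an unadjusted p under 0.05 higher with NMN. Irf7, the master regulator of interferon induction, and Ifit2 were among those 6 and were not called for the interaction. The effects of Irf7 were 0.67 and 0.62, and those of Ifit2 0.68 and 0.73. Gbp genes are close copies of each other, and reads may have been shared between them. Cyp1a1, an aryl hydrocarbon receptor target, was at 3.38, 85.2, 17.1 and 11.2 CPM in doxorubicin NMN and at most 6.96 elsewhere; replicate 2 carried most of its mean, and its interaction was 4.22 ± 1.31 (adjusted p 0.0408; 0.0547 without replicate 3).

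For some lists no interaction was called or the calls were near the background. None of 19 circadian clock genes was called in edgeR's test, with medians of -0.042 and 0.0024; the interval lay within 2-fold for 3 of them, and for the other 16 it reached beyond. These clock genes split with the division of the libraries: the list level was 0.39, 0.37, -0.35 and -0.41 above or below the sham vehicle mean, on the log2 scale, in the sham vehicle libraries. There were 5 positive interactions in the first part, 4 positive and 7 negative in the second, 2 positive and 1 negative with the division as a term, and 2 positive with the replicate block. Of 16 adrenergic and muscarinic signalling genes, 2 were positive and 1 negative (0 and 1 without replicate 3), and of 20 genes of doxorubicin targets and handling 3 were positive and 2 negative (1 and 1 without replicate 3). The drug's nuclear target Top2b had effects of 0.073 and -0.1 with an interaction of -0.18 ± 0.12 (adjusted p 0.317, interval -0.43 to 0.077). It was -0.41 in the second part, where each NMN group has 1 library. Por, the reductase that can reduce doxorubicin to its semiquinone, had a negative interaction (1.28 and 0.27), and Abcb8, a mitochondrial iron-export transporter, a positive one (-0.65 and 0.1). Of 12 endothelial markers, 2 were positive and 1 negative (1 and 0 without replicate 3).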

How the data were processed

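RNA-seq libraries were made from total heart RNA with a NEBNext Ultra RNA kit, per the labels' protocols; that kit does not mark strand. The submitters' processing notes name HISAT2 2.1.0, HTSeq 0.6.0 and the mm10 (GRCm38) build; the annotation release and counting options are not given in them. The deposited table holds whole-number read counts per gene, which the authors did not normalize; all 16 value columns matched a library in the labels.

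Counts were analysed with edgeR 4.0.16 in R 4.3.3 (filterByExpr, TMM scaling, robust quasi-likelihood fit, Benjamini-Hochberg adjustment over 14716 genes), with 1 fit over the 4 groups and contrasts for the interaction and each doxorubicin effect. CPM values of single genes use TMM-scaled totals, and summed marker levels use plain library totals. List levels and library slopes come from log2 CPM with a prior count of 2. Log2 effects come from the edgeR fit, which did not use that prior count. Errors are standard errors unless given as SD. The common dispersion was 0.0377, a coefficient of variation of 19.4%. Calls mean an adjusted p under 0.05. The fit was also run on simulated counts, and no result given here rests on that run. Depth sets the limit for rare transcripts, and intervals and floors cover counting error only where they rest on counts of 1 library.

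Named genes were the 10 smallest interaction p in each direction (CPM of at least 5 in the highest group), up to 4 members per list by interaction p and 2 by the p with NMN, and 17 fixed genes; others were chosen after their values were seen, and some genes are not reported here. The members and lists (46 pathway and 14 cell type lists) were chosen with earlier results of these data known. Replicate numbers were not used as pairs: of 24 same-numbered pairs, 5 had deviations correlated above 0.1 (range -0.117 to 0.405). Alternatives were other scalings, filters, thresholds, DESeq2 1.42.0, limma-voom 3.58.1, a replicate block, the division of the libraries and leaving out each library. Mt2, with near-zero counts, was not used.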

Additional observations from a re-analysis of the deposited data

Results flagged for a closer look

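The doxorubicin effect differed with NMN, by edgeR's test of the interaction itself, for 2654 genes, which are described above.

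Dixon's test was applied to 154 groups of 4 libraries. These were the 4 groups for each of a set of genes given in the text, and the library slopes of sham NMN and of doxorubicin NMN. A single library stood far from the other 3 in 5 of the 154 (3.25%), and chance flags about 1 in 20 groups. Alas2 in the library labelled doxorubicin NMN replicate 3 was at 7.734 CPM, against 0.0675 to 0.205 in the other 3. Col3a1, a fibrillar collagen, in sham NMN replicate 4 was at 383.6 CPM, against 104.9 to 117.9. Slc2a4 in sham NMN replicate 4 was at 359.7 CPM, against 452.2 to 464.7. Gpt in sham NMN replicate 2 was at 40.85 CPM, against 37.12 to 37.61, and Anxa7 in sham NMN replicate 3 was at 92.91 CPM, against 83.06 to 84.04. Sham NMN replicate 4 is the only library of its group in the second part of the division.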

How the results depend on the processing

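The interaction count of 2654 stayed within 1.5 times under RLE scaling (2687), upper-quartile scaling (2660, 1597 positive and 1063 negative), no filter (1968), a CPM filter (2668), DESeq2 (3328), limma-voom (2559), no robust shrinkage (2714), the division as a term (3491) and the replicate block (2583), where same-numbered libraries shared only a number and 5 of 16 libraries correlated best with their own. It moved to 7010 with limma-voom quality weights, 1382 in the first part, 4850 in the second, 851 at an adjusted p under 0.01, 1275 with a 2-fold minimum, and 1673 to 4114 with single libraries left out. The doxorubicin effect without NMN (7145) moved to 4128 in the first part, 2629 with a 2-fold minimum, and 6062 to 7861 with single libraries left out. The doxorubicin effect with NMN (0) moved to 21 with DESeq2, 14 with weights, 1911 in the second part, and 0 to 21 with single libraries left out. The NMN effect in sham hearts (0) moved to 2 in the first part and 119 in the second, and stayed 0 without any single library. The retained doxorubicin genes (0) moved to 3 with DESeq2, 1 with weights, 738 in the second part, and 0 to 7 with single libraries left out. The partly kept doxorubicin genes (428) moved to 256 in the first part, 1262 in the second, 9 with a 2-fold minimum, 144 with an interval within 1.5-fold, and 204 to 672 with single libraries left out. Fits to the second part rest on single NMN libraries. Among named genes with a call in all libraries or in the second part, the interaction reversed there for Hba-a1 (-1.23, from 6.47) and Gpx4 (0.57, from -0.17). Of all 2654 genes called with all libraries, 9 had the other sign there. The causes were not tested. Depth limits genes near 0.2 CPM.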

Other observations

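Immunoglobulin A transcripts, products of plasma cells, appeared in 2 libraries of 1 group, and were chosen here after their values were seen. Igha counts were 0, 3, 4262 and 4813 in doxorubicin vehicle, 0, 3, 8 and 79 in doxorubicin NMN, 6, 3, 1 and 0 in sham vehicle and 1, 4, 2 and 0 in sham NMN. The joining chain Jchain was at 2, 3, 817 and 980 counts in doxorubicin vehicle and 5, 1, 2 and 19 in doxorubicin NMN, and the kappa chain Igkc at 0, 0, 1517 and 1770 and 3, 1, 3 and 26. The same 3 libraries, doxorubicin vehicle replicates 3 and 4 and more weakly doxorubicin NMN replicate 4, were high for all 3 genes, and all 3 libraries belong to the second part of the division. These genes had too few counts in the other libraries to be tested. Ighm, of the mu class, did not share the pattern, at 7, 19, 9 and 9 counts in doxorubicin vehicle and 72, 108, 73 and 67 in doxorubicin NMN.

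Some vascular genes not described above had a positive interaction. Of 18 angiogenic genes, 5 had a positive and 0 a negative interaction (3 positive without doxorubicin NMN replicate 3), among them the peptide hormone Apln (-5.97 without and -0.6 with NMN), its receptor Aplnr (-4.21 and -0.45) and Vegfa (-1.21 and -0.13). Lox, which crosslinks collagen, had a negative interaction (2.79 and 0.16).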
